A study of Mus musculus with 6 samples.

Results

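A set of 10 genes of the machinery that holds a cell in, or releases it from, the G1 phase was followed in ribosome footprints of activated and resting mouse CD4+ T cells. They are the D-type cyclins Ccnd2 and Ccnd3, the E-type cyclin Ccne1, the atypical cyclin Ccng2, the kinases Cdk4 and Cdk6, the CIP/KIP inhibitors Cdkn1a (p21) and Cdkn1b (p27), and the pocket proteins Rb1 and Rbl2 (p130). They were selected by Ensembl gene ID, 10 of 22322 genes in the table, and the choice was made with their coding-sequence (CDS) and 5' UTR counts in activated against resting cells already in view. Every difference between the groups given here for these genes is therefore a description, with its spread and standard error (SE) and without a p-value.

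The activated group was 3 libraries of CD4+ T cells stimulated with magnetic beads that carry antibodies to CD3 and CD28. The resting group was 3 libraries of CD4+ T cells without that stimulation. Both were taken from C57BL/6J female mice aged 6 weeks (spleen and lymph nodes), were enriched by negative selection and are labelled untreated at 0 h, before the inhibitors of transcription and translation that the study used. Each group holds biological replicates 2, 3 and 4. The labels and file headers do not say whether a replicate was 1 animal, a pool or a culture, and how long stimulation lasted is not stated in those sources. The deposited table pairs its gene IDs with no names, so the cell type markers and the wider list of G1 genes chosen for comparison could not be matched, and the purity of the cells was not checked.

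Entry into the cell cycle is known to begin with D-type cyclins, which are made in response to growth signals and activate Cdk4 and Cdk6. These kinases phosphorylate the pocket proteins, which otherwise hold E2F transcription factors in check, and cyclin E with Cdk2 completes the step into S phase. CIP/KIP proteins restrain the cyclin-dependent kinases, and resting lymphocytes are known for high p27 and p130. A footprint is the piece of mRNA covered by a ribosome, so its count reflects both how much mRNA there is and how many ribosomes sit on it, and these 2 parts cannot be told apart here. Nor can a change in the share of cells that make a protein be told apart from a change per cell.

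The genes lie on several chromosomes (GRCm38.p6, the assembly of build mm10). Ccnd2 spans chr6:127125162-127152188 and Cdkn1a spans chr17:29090979-29100722. Ccng2 spans chr5:93267573-93276231, Cdkn1b spans chr6:134920401-134925525, Rbl2 spans chr8:91070057-91123844 and Ccnd3 spans chr17:47505051-47599689. Cdk4 spans chr10:127063535-127067288, Rb1 spans chr14:73192858-73325951, Cdk6 spans chr5:3341004-3531008 and Ccne1 spans chr7:38097984-38107490. Besides the overlaps given below for Ccnd3, Cdk4 and Rbl2, some spans share bases with other annotated genes. Rb1 shares 2468 bases with the coding gene Lpar6 and 89 with Mir687. Long non-coding RNA genes share 2800 bases with Ccnd2 (9330179D12Rik) and 7217 with Ccnd3 (Gm41590). Such genes also share 2556 and 19218 bases with Cdk6 (Gm36470 and Gm29868). Upstream sequence was given for 8 of the 10 genes.

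CDS counts summed to between 511483 and 1074656 in activated libraries and to between 437200 and 594508 in resting libraries. The 10 genes together held 0.112 ± 0.0193% of these raw counts in activated cells and 0.112 ± 0.00503% in resting cells (SD, n = 3 each). The factors that scale library sizes for the levels below were 0.880 to 0.894 in activated libraries. In resting libraries they were 1.12 to 1.13, so equal shares of raw counts are not equal joint levels after scaling. Of the 10, 8 passed the filter on low counts, and 2, Ccne1 and Cdk6, did not. In a fit of all 6775 genes that passed (edgeR's quasi-likelihood test, Benjamini-Hochberg adjusted p under 0.05), 2 of the 8 were higher in activated cells, against 24.1% of all genes tested. Of the same 8, 4 were lower, against 21.6% of all genes tested. Activated and resting CPM did not overlap for these 6 genes, against 54.8% of all genes tested. Since the genes were chosen on this contrast, nothing is read from these counts. Levels are given as CPM, counts over a library size scaled by TMM, a factor that balances libraries on their typical gene. They are compared within a gene and not between genes, because coding lengths were not used here.

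**Figure D1:**
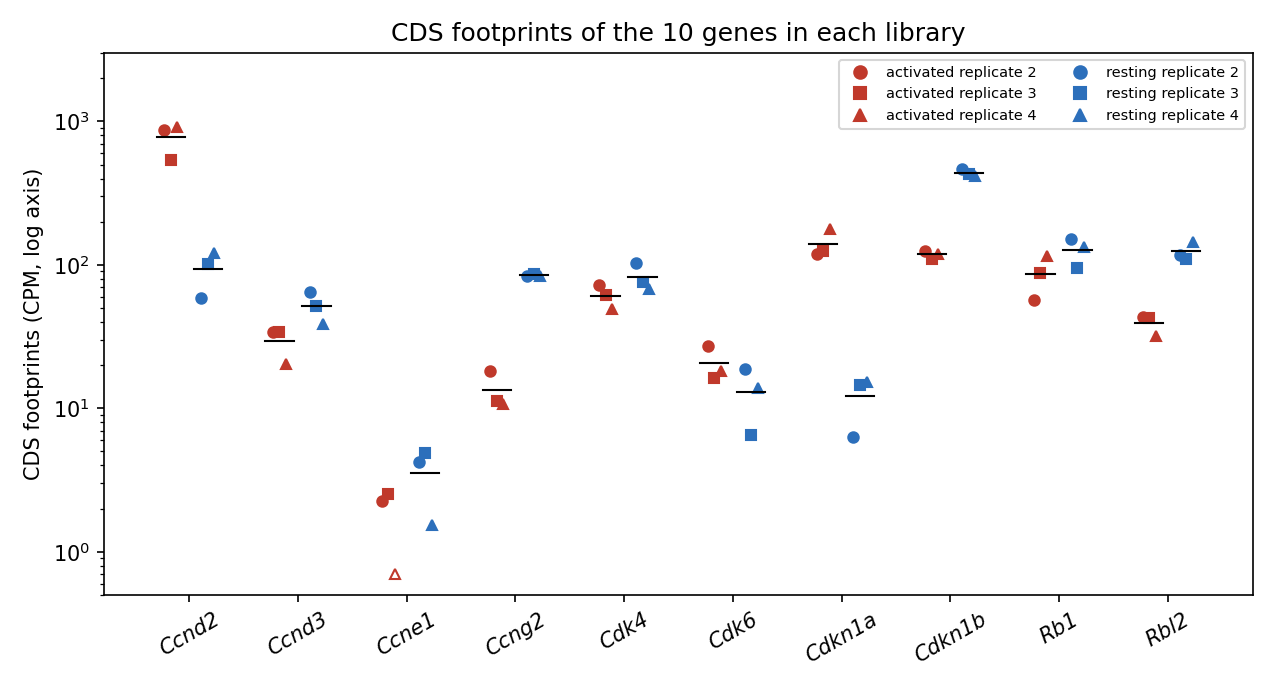
CDS footprints of each gene in each library, in CPM on a log axis, with activated libraries to the left of resting libraries and black bars at the group means. The activated points of Ccnd2 and Cdkn1a lie above all resting points, those of Ccnd3, Ccng2, Cdkn1b and Rbl2 lie below them, and those of Cdk4, Cdk6, Rb1 and Ccne1 overlap. The open symbol marks a library with 0 counts, drawn at the foot of the axis, and the mean is left out for that group.

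The D-type cyclins differed in opposite directions. Ccnd2 (ENSMUSG00000000184), encoding cyclin D2, had 875, 541 and 913 CPM in activated replicates 2, 3 and 4, against 58.9, 102 and 121 CPM in resting replicates 2, 3 and 4. Every activated library was above every resting library. The means were 776 ± 205 CPM in activated cells and 94.2 ± 32.0 CPM in resting cells (SD, n = 3 each), an 8.24-fold difference with a fitted log2 change of 3.01 (SE 0.24). Among all genes tested, 99 had a higher fitted change.

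Ccnd3 (ENSMUSG00000034165), encoding cyclin D3, had 34.1, 33.9 and 20.2 CPM in activated replicates 2, 3 and 4, against 65.2, 51.9 and 38.4 CPM in resting replicates 2, 3 and 4. The groups lay close together without overlapping. These levels rest on 15, 27 and 19 CDS counts in activated libraries and on 31, 32 and 25 counts in resting libraries. The fitted log2 change was -0.84 (SE 0.30). It was -0.55 without activated replicate 4, -0.66 without resting replicate 2 and -0.82 without resting replicate 3, and in each of these fits, as in DESeq2 with all libraries (-0.83), Ccnd3 no longer passed the threshold. The last 359 bases of Ccnd3 in the RefSeq annotation also lie within Bysl, and whether the counting used strand is not stated in the sources used here.

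Within a library, the ratio of Ccnd2 to Ccnd3 does not depend on the scaling between libraries. Ccnd2 had 2567, 1593 and 4516 CDS counts per 100 of Ccnd3 in activated replicates 2, 3 and 4, against 90.3, 197 and 316 per 100 in resting replicates 2, 3 and 4. Over the summed counts of a group, the ratio was 14.2 times as high in activated cells. Resting cells thus had counts of the same order on both genes, whereas activated cells had almost all counts of the pair on Ccnd2. The counts are not corrected for coding length, which cancels in the change of a ratio but not in the ratio itself.

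Ccne1 (ENSMUSG00000002068), encoding cyclin E1, was at the limit of detection. It had 1, 2 and 0 CDS counts in activated replicates 2, 3 and 4, against 2, 3 and 1 in resting replicates 2, 3 and 4. The sums were 3 counts in activated cells (95% Poisson interval 0.619 to 8.77) and 6 in resting cells (2.20 to 13.1), intervals that overlap and cover counting error only. A difference between the groups was not detectable at this depth.

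The kinases that D-type cyclins activate showed small differences beside those of Ccnd2. Cdk4 (ENSMUSG00000006728) had 72.7, 61.6 and 49.0 CPM in activated replicates 2, 3 and 4, against 103, 76.2 and 67.6 CPM in resting replicates 2, 3 and 4. The groups overlapped, and the fitted log2 change was -0.45 (SE 0.23), not past the threshold. In exon counts, which add the untranslated regions, its log2 change was 0.15, also not past the threshold. The sign of the fitted change of Cdk4 thus differed with the region counted, and no direction is read from it. Its annotated span shares 2 bases with the neighbouring gene Tspan31.

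Cdk6 (ENSMUSG00000040274) had 12, 13 and 17 CDS counts in activated replicates 2, 3 and 4, against 9, 4 and 9 in resting replicates 2, 3 and 4. As levels, these were 20.6 ± 5.87 CPM in activated cells and 13.1 ± 6.25 CPM in resting cells (SD, n = 3 each), and the groups overlapped. Cdk4 had 267, 377 and 271 counts per 100 of Cdk6 in activated replicates 2, 3 and 4, against 544, 1175 and 489 in resting replicates 2, 3 and 4. The ratio was lower in every activated library than in any resting library, although neither kinase alone separated the groups. The highest resting value rests on 4 counts of Cdk6.

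The CIP/KIP inhibitors also differed in opposite directions. Cdkn1a (ENSMUSG00000023067), encoding p21, a p53 target that also responds to mitogens, had 118, 126 and 179 CPM in activated replicates 2, 3 and 4, against 6.31, 14.6 and 15.4 CPM in resting replicates 2, 3 and 4. Every activated library was several times above the highest resting library. The means were 141 ± 33.1 CPM in activated cells and 12.1 ± 5.02 CPM in resting cells (SD, n = 3 each), with a fitted log2 change of 3.49 (SE 0.30), which 60 of the genes tested exceeded. Behind these levels stand 52, 100 and 168 counts in activated replicates 2, 3 and 4, and 3, 9 and 10 counts in resting replicates 2, 3 and 4. Cdkn1a passed the filter on low counts only through the activated libraries, where it was high, so its rank is a description.

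Cdkn1b (ENSMUSG00000003031), encoding p27, which keeps kinases inactive in resting lymphocytes, had 125, 111 and 119 CPM in activated replicates 2, 3 and 4, against 463, 431 and 415 CPM in resting replicates 2, 3 and 4. The libraries of a group lay close together and the groups were far apart. The means were 118 ± 7.22 CPM in activated cells and 436 ± 24.2 CPM in resting cells (SD, n = 3 each), 3.69-fold lower in activated cells, with a fitted log2 change of -1.89 (SE 0.15). Of the genes tested, 72 had a lower fitted change. Cdkn1a had 94.5, 114 and 150 CDS counts per 100 of Cdkn1b in activated replicates 2, 3 and 4, against 1.36, 3.38 and 3.70 in resting replicates 2, 3 and 4. Over summed counts the ratio was 43.1 times as high in activated cells, so resting cells had nearly all counts of this pair on Cdkn1b, and activated cells had similar counts on both.

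**Figure D2:**
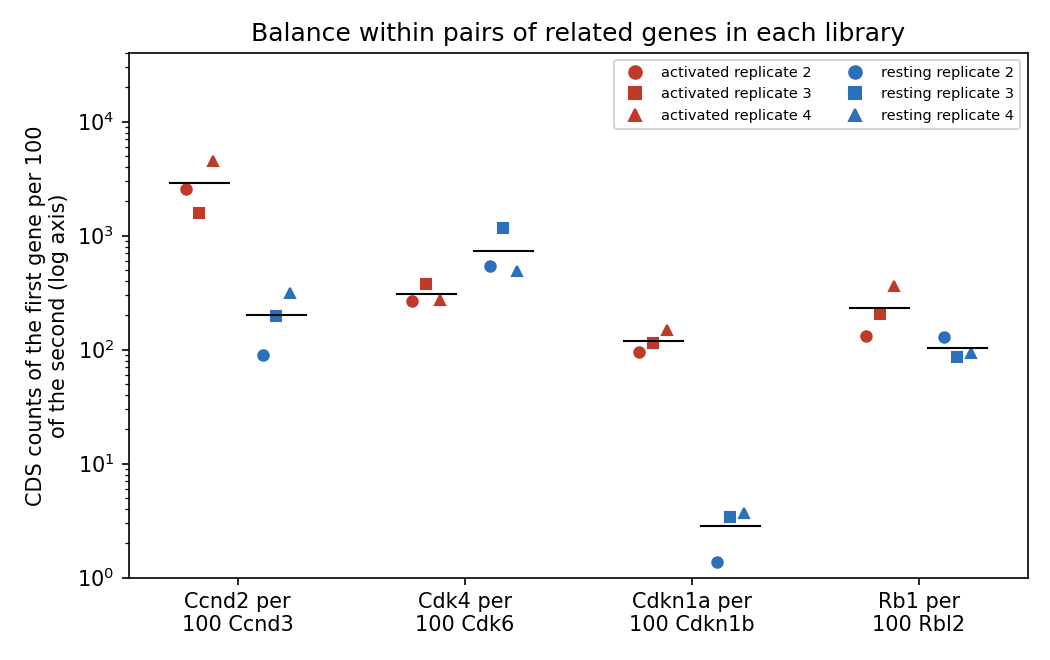
CDS counts of one gene per 100 counts of a related gene in the same library, on a log axis, for 4 pairs, with activated libraries to the left of resting libraries and black bars at the means. The ratio of Ccnd2 to Ccnd3 lies between 1593 and 4516 in activated libraries and between 90.3 and 316 in resting libraries, and that of Cdkn1a to Cdkn1b between 94.5 and 150 in activated libraries and between 1.36 and 3.70 in resting libraries.

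Of the pocket proteins, p130 differed by more than Rb. Rbl2 (ENSMUSG00000031666), encoding p130, which with E2F4 represses cell cycle genes in resting cells, had 43.2, 42.7 and 31.9 CPM in activated replicates 2, 3 and 4, against 118, 110 and 144 CPM in resting replicates 2, 3 and 4. All activated libraries were below all resting libraries, 3.16-fold lower in the mean, with a fitted log2 change of -1.69 (SE 0.22). The annotated Rbl2 span shares 12064 bases with Aktip.

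Rb1 (ENSMUSG00000022105), encoding the retinoblastoma protein, had 56.8, 88.0 and 116 CPM in activated replicates 2, 3 and 4, against 151, 95.7 and 134 CPM in resting replicates 2, 3 and 4. The groups overlapped, and the fitted log2 change was -0.48 (SE 0.24), not past the threshold. Without each library in turn it ranged from -0.72 to -0.27, past the threshold without activated replicate 4 (-0.72) and not past it without activated replicate 2 (-0.27) or any other library. Rb1 had 132, 206 and 363 CDS counts per 100 of Rbl2 in activated replicates 2, 3 and 4, against 129, 86.8 and 92.6 in resting replicates 2, 3 and 4. The ratio in activated replicate 2 was barely above that in resting replicate 2.

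Ccng2 (ENSMUSG00000029385) had the lowest fitted change of all 6775 genes tested, a rank given as a description only. It encodes cyclin G2, which unlike classical cyclins is associated with growth arrest. It had 8, 9 and 10 CDS counts in activated replicates 2, 3 and 4, against 40, 53 and 54 in resting replicates 2, 3 and 4. As levels, these were 18.2, 11.3 and 10.6 CPM in activated libraries and 84.1, 86.0 and 83.0 CPM in resting libraries. The resting libraries differed from each other by less than the activated libraries did, and the groups were well apart. With 40, 53 and 54 counts, counting error alone exceeds the spread of the resting levels, so their closeness is not read as precision. The means were 13.4 ± 4.17 CPM in activated cells and 84.4 ± 1.50 CPM in resting cells (SD, n = 3 each), 6.31-fold lower in activated cells, with a fitted log2 change of -2.73 (SE 0.28). Its activated level rests on 27 counts in all, and in exon counts its log2 change was -2.10. It passed the filter on low counts only through the resting libraries, where it was high.

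The 250 bases before the annotated start are shown for Ccng2, Cdkn1b and Rbl2, since these 3 genes associated with quiescence were the ones furthest down together, and FOXO forkhead factors are known to activate them. Cdk4, a known Myc target, is shown for its E-boxes. All 4 windows are on the plus strand, taken from RefSeq on GRCm38.p6, at chr5:93267323-93267572 for Ccng2, chr6:134920151-134920400 for Cdkn1b, chr8:91069807-91070056 for Rbl2 and chr10:127063285-127063534 for Cdk4. Capitals mark matches on either strand to the forkhead core TAAACA in the first 3 and to the E-box CACGTG in Cdk4.
Ccng2: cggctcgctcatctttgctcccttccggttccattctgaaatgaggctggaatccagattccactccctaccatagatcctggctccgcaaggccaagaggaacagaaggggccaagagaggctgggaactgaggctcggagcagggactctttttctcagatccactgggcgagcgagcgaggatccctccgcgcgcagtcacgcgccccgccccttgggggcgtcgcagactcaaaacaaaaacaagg
Cdkn1b: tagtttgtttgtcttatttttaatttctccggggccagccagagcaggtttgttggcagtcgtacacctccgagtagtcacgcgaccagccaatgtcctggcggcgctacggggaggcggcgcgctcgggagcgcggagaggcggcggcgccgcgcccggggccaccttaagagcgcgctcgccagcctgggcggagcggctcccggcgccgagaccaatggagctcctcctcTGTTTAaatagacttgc
Rbl2: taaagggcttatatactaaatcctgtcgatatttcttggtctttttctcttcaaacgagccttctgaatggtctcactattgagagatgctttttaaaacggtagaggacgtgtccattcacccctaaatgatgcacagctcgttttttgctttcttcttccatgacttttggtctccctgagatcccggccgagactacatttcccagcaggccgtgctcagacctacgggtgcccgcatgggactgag
Cdk4: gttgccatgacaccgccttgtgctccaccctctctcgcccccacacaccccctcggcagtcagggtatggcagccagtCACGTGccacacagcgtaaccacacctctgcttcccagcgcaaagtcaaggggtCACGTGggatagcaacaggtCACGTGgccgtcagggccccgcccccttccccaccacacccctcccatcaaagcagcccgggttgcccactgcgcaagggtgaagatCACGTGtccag

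The forkhead core matched at 1 place in the Cdkn1b window, 17 bases before the start, and not in those of Ccng2 or Rbl2. It was found in 12.03% of 32851 upstream windows of the same length in the table. The longer forkhead site GTAAACA, which contains that core, was in 3.17% of all windows and matched in a single window of these genes, 243 bases before 1 of the 2 starts of Ccnd3. The E-box, which reads the same on both strands, matched 4 times in the Cdk4 window, between 172 and 11 bases before the start. At least 1 E-box were found in 6.02% of all windows and 4 or more in 7 windows. Cdk6 had 1 E-box, 220 bases before its start. A match describes letters in the window and says nothing of a factor bound there.

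Under upper quartile factors the median log2 change of all genes was -0.18, and under library totals alone -0.38, against -0.04 under TMM. All 8 genes tested kept their direction under these scalings. Cdk4 and Rb1 then passed the threshold as lower. Relative to that shift of the median their log2 changes were -0.41 and -0.44 under both scalings, near those under TMM. A scaling moves all genes by nearly the same amount, so this nearness does not show which scaling is right.

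**Figure D3:**
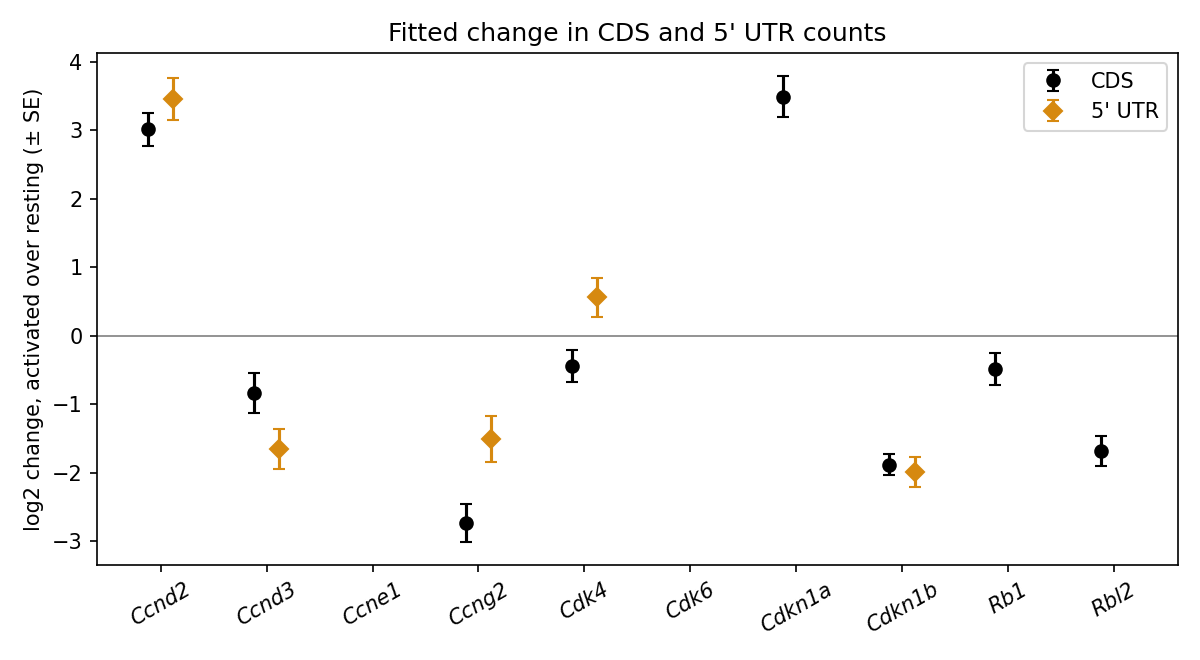
Fitted log2 change, activated over resting, with its SE, in CDS counts (black circles) and in 5' UTR counts (orange diamonds); genes without a symbol did not pass the filter on low counts in that region. Ccnd2 is high and Cdkn1b low in both regions, Ccnd3 is lower in the 5' UTR (-1.66) than in the CDS (-0.84), Ccng2 is lower in the CDS (-2.73) than in the 5' UTR (-1.50), and for Cdk4 the 5' UTR (0.56) lies above 0 and the CDS (-0.45) below it.

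Several of these genes had many counts on their leaders relative to their coding sequence. In resting cells, Ccnd3 had 128 counts in the 5' UTR per 100 in the CDS over the 3 libraries, Cdkn1b had 64.2, Cdk4 had 51.4 and Ccng2 had 44.9. The median of the 5389 genes with at least 50 CDS counts in resting cells was 6.73, and these genes stood at percentiles 98.7, 94.4, 91.8 and 89.3. Rb1, at 6.42 per 100, lay near the middle of all genes, at percentile 49.3. These ratios depend on the lengths of both regions and are not densities, and how a record across the start codon was counted is not stated in the sources used here.

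On 5' UTR counts alone, 5 of the 10 genes passed the filter. Of these, Ccnd2 was higher in activated cells (1 gene), against 22.2% of the 2200 genes tested. Ccnd3, Ccng2 and Cdkn1b were lower (3 genes), against 19.8% of the genes tested. Ccnd3 and Ccng2 reached the filter's level in all resting but not all activated libraries, and Ccnd2 in all activated but not all resting libraries. Each of these thus entered the fit through the group where it was high, so nothing is read from these calls. The 5' UTR of Ccnd2 had 126, 118 and 216 counts in activated replicates 2, 3 and 4, against 9, 12 and 7 in resting replicates 2, 3 and 4, a fitted log2 change of 3.46 (SE 0.31). That of Cdkn1b had 46, 68 and 68 counts in activated replicates 2, 3 and 4, against 151, 177 and 157 in resting replicates 2, 3 and 4, a log2 change of -1.99 (SE 0.22). For Cdkn1b, leader and coding footprints thus differed by like amounts. Ccnd2 had 32.7, 27.4 and 25.2 leader counts per 100 in the CDS in activated replicates 2, 3 and 4. In resting replicates 2, 3 and 4 it had 32.1, 19.0 and 8.86, on few leader counts, and the groups overlapped. The log2 change of this ratio was 0.44 (SE 0.38), not past the threshold. The 5' UTR of Cdkn1a, which did not pass the filter, had 7, 39 and 43 counts in activated replicates 2, 3 and 4, against 2, 2 and 4 in resting replicates 2, 3 and 4. The activated libraries were the higher ones here too. Without activated replicate 2, or without any single resting library, it passed the filter, but only through activated libraries, where it was high. Its log2 change was then 2.48 to 3.19, beyond the threshold as higher in those 4 fits. Because of how it entered them, nothing is read from that call.

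For Ccng2 and Cdk4 the leader held a larger part in every activated library than in any resting library. Neither ratio passed the threshold in the fit of the ratio given below. Ccng2 had 150, 100 and 120 counts in the 5' UTR per 100 in the CDS in activated replicates 2, 3 and 4, against 35.0, 50.9 and 46.3 in resting replicates 2, 3 and 4. Its leader counts were 12, 9 and 12 in activated libraries and 14, 27 and 25 in resting libraries, a log2 change of -1.50 (SE 0.34). Leader footprints were thus lower in activated cells too, with a smaller fitted change than in the CDS. The log2 change of the ratio was 1.14 (SE 0.44), not past the threshold.

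Cdk4 had 169, 102 and 109 counts in the 5' UTR per 100 in the CDS in activated replicates 2, 3 and 4, against 49.0, 51.1 and 54.5 in resting replicates 2, 3 and 4. The 3 resting ratios were almost alike and every activated ratio was above them, highest in activated replicate 2. Those resting ratios rest on few counts, so their closeness is not read as precision. Over all genes, activated replicate 2 also had the highest ratio, 20.02 per 100, against 13.97 to 15.5 in the other libraries. The leader of Cdk4 had 54, 50 and 50 counts in activated replicates 2, 3 and 4, and 24 counts in each resting library, a log2 change of 0.56 (SE 0.29) that did not pass the threshold.

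Rbl2 went the other way, with 5.26, 0 and 6.67 leader counts per 100 CDS counts in activated replicates 2, 3 and 4, against 10.7, 11.8 and 10.6 in resting replicates 2, 3 and 4. These ratios rest on 1, 0 and 2 leader counts in activated libraries and on 6, 8 and 10 in resting libraries. Ccnd3 had 66.7, 81.5 and 111 per 100 in activated replicates 2, 3 and 4, against 93.5, 163 and 128 in resting replicates 2, 3 and 4, and the groups overlapped. Its leader alone had 10, 22 and 21 counts in activated replicates 2, 3 and 4, against 29, 52 and 32 in resting replicates 2, 3 and 4, a log2 change of -1.66 (SE 0.29).

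In a fit of 5' UTR counts relative to CDS counts, with a separate scaling for each region, the log2 change of the ratio was 1.14 for Ccng2 (SE 0.44), 0.95 for Cdk4 (SE 0.33), -1.84 for Rbl2 (SE 0.77) and -0.82 for Ccnd3 (SE 0.41). None of the 8 genes tested passed the threshold in edgeR, against 0.256% of the 4305 genes tested. At an unadjusted p under 0.05 there were 3 of the 8, against 10.4% of all genes tested, a count given only as a description. DESeq2 gave an adjusted p for 6 of the 8, of which none passed, and none for Rb1 and Rbl2. The ratios of the groups did not overlap for 3 of the 8, Ccng2, Cdk4 and Rbl2, against 18.9% of all genes tested. For Cdkn1b, with 83.6, 77.3 and 60.7 per 100 in activated replicates 2, 3 and 4 and 68.6, 66.5 and 58.1 in resting replicates 2, 3 and 4, the groups overlapped. Its log2 change of the ratio, -0.11 (SE 0.27), was 0.17 with 1 scaling for both regions.

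**Figure D4:**
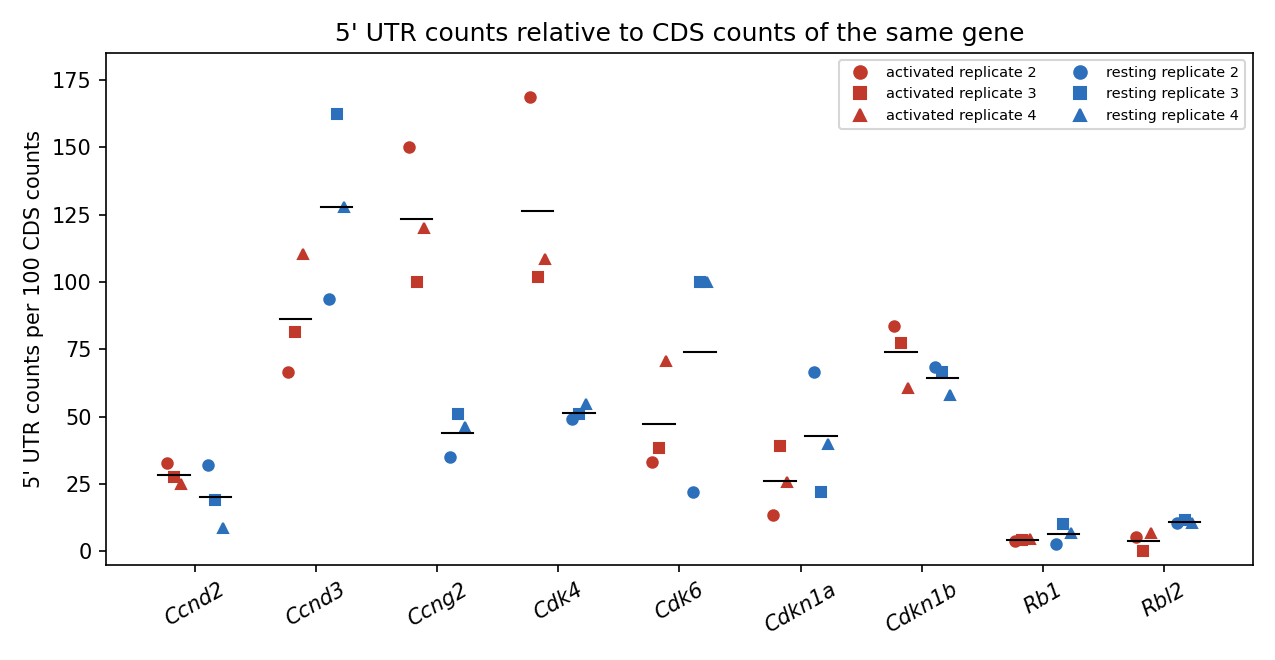
Counts in the 5' UTR per 100 counts in the CDS of the same gene in each library, with activated libraries to the left of resting libraries and black bars at the means; Ccne1 is left out for its low counts. The activated points of Ccng2 (100 to 150) and Cdk4 (102 to 169) lie above their resting points (35.0 to 50.9 and 49.0 to 54.5), and the ratios of Rb1 and Rbl2 stay below 12 in all libraries.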

How the data were processed

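Per the file headers, the authors deposited raw counts of records per gene for each library in 6 ways: CDS in 2 counting modes, 5' UTR, 3' UTR, exons and strictly intronic sequence. Per the submitters' processing notes, the tools were TopHat2 2.0.13, Bowtie 1.1.1.0 and HTSeq, and the build was mm10. The sources used here do not state annotation release, trimming or strand setting. Columns were matched to samples by the library number in the sample descriptions; the column names number each group's libraries 1 to 3, where the labels number the replicates 2 to 4, and the labels' numbers are used. Rows that name no gene were left out: not uniquely aligned records made up 65.8% to 79.6% of the CDS column's records, so genes with near-identical copies are uncertain.

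CDS counts of all genes were fitted with edgeR 4.0.16 in R 4.3.3 (filterByExpr, TMM, glmQLFit, glmQLFTest on the group, two-sided, Benjamini-Hochberg adjustment over all genes tested, threshold 0.05). The SE is the size of the log2 change over the square root of F. CPM are the first CDS column over TMM-scaled library sizes. 5' UTR counts were fitted alike, and relative to CDS counts in 1 model with terms for library, region and region in activated cells, over genes with at least 10 counts in the 5' UTR. The fits were tested on simulated data with large changes, which does not measure how often a small change in a ratio, or one on few leader counts, would pass. Alternatives were other scalings, no filter, DESeq2 1.42.0, other count columns, the replicate number as a block and each library left out. No count column lacked a sample.

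All 10 members are named. They, the lists and the motifs were chosen with earlier results of these data known, and the ratios between genes and the 3' UTR counts were added after seeing the data. Symbols of the 10 come from the rule that defines them, and all 10 matched RefSeq by symbol. The planned list of other G1 genes, the cell type markers, the genes of most similar pattern and footprints per codon could not be computed, since the tables used here give neither names for other IDs nor coding lengths. P-values and SE measure the spread between these libraries, which may be technical.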

Additional observations from a re-analysis of the deposited data

Results flagged for a closer look

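Of the 10 genes, 1 had at least 10 counts over the activated libraries in the 3' UTR or in introns and a share of that region's counts that was higher in every activated than in every resting library. This rule looks at the activated side alone, and Ccnd2, the gene it flagged, was also higher in CDS counts. The share of all genes that meet the rule was not computed, so nothing is read from the count. Ccnd2 had 69 counts in the 3' UTR over the activated libraries (30, 17 and 22 in replicates 2, 3 and 4) and 9 over the resting libraries (5, 2 and 2). Relative to its own CDS, Ccnd2 had 7.79, 3.95 and 2.56 counts in the 3' UTR per 100 in activated replicates 2, 3 and 4, against 17.9, 3.17 and 2.53 in resting replicates 2, 3 and 4, and the groups overlapped. The cause was not tested.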

How the results depend on the processing

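Under the 14 alternatives in CDS counts, Ccnd2, Cdkn1a, Ccng2, Cdkn1b and Rbl2 kept their direction and their side of the threshold, with log2 changes of 2.67 to 3.25, 3.15 to 3.68, -3.07 to -2.10, -2.22 to -1.79 and -2.02 to -1.50. Ccnd3 kept its direction (-1.17 to -0.55) and missed the threshold in 4 of them. The number of the 10 genes past it was 5 to 6 without each library, 5 with DESeq2, and 8 with upper quartile factors or library totals alone, against 6. The number over all genes was 2654 to 3055 without each library, against 3097. With library totals alone 1102 genes were higher and 2572 lower, with upper quartile factors 1399 and 1897, and with DESeq2 1399 and 1038, against 1633 and 1464. With the replicate block 3455 genes passed, and the same number of the 10 genes, 6. In 5' UTR counts, 720 to 977 genes passed without each library, and 368 were higher and 592 lower with library totals alone, against 488 and 436. The number of the 10 genes past the threshold there was 4 to 5 without each library, against 4. The added gene was Cdkn1a, which passed the filter in those fits only through activated libraries.

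For 5' UTR relative to CDS counts, 11 genes passed (4 higher, 7 lower; 449 at an unadjusted p under 0.05), 0 with 1 scaling for both regions, 18 with the replicate block in place of library terms and 1 to 17 without each library. None of the 8 genes of the set that were tested passed in any of these, nor with a minimum of 1 count in the 5' UTR (10 genes over all). With DESeq2 (10 genes over all) none of the 6 with an adjusted p passed; Rb1 and Rbl2 had none. The log2 change of the ratio was 0.99 to 1.45 for Ccng2, 0.88 to 1.24 for Cdk4 and -2.85 to -1.15 for Rbl2, and for Ccnd2 it was -0.01 without resting replicate 4, against 0.44. The cause of these shifts was not tested. Across genes, deviations from the group mean were correlated between libraries of the same number (0.13 for 2, 0.07 for 3 and 0.23 for 4). Between an activated and a resting library of different number the correlation was lower in every case, -0.16 to 0.0075. The deviations are centred within each group, so positive values at equal numbers push those at different numbers down. The lower values are therefore not separate support for a pairing. The pairing by number is not settled, and the main fits do not use it. Low counts limit Ccne1, Cdk6 and the leaders of Cdkn1a, Rbl2 and Rb1, among others.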
